A study of Mus musculus with 2 samples.

Results

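The mitochondrial genome is a small circle of DNA that is transcribed from both strands into long precursors, from which the ribosomal RNAs, the transfer RNAs and the messenger RNAs are cut out. Its protein genes all encode subunits of the respiratory chain and ATP synthase, whose other subunits come from the nucleus, and its ribosomal and transfer RNAs serve the mitochondrial ribosome. In erythroid precursors mitochondria also house the first and last steps of haem synthesis, and they are removed when the red cell matures. Parts of the mitochondrial genome also lie in the nuclear chromosomes as inactive copies.

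The genes described here are all 37 genes of the mitochondrial chromosome, whose names start with mt-, out of 43346 named genes. They are 13 protein genes (7 of complex I, 1 of complex III, 3 of complex IV and 2 of ATP synthase, complex V), 2 rRNA genes and 22 tRNA genes. The rule is the chromosome and uses no measured value. RNA came from G1E, an immortalized mouse erythroid progenitor line labelled as Gata1-, strain C57BL/6J, male, postnatal with an age of 0 day. No treatment or comparison condition is labelled, so both libraries, biological replicates 1 and 2, form 1 group of a single line. Each used 100 ng of rRNA-depleted total RNA, and they held 58094631 and 55274368 expected counts (estimated reads) on named genes. Gata1 held 1862 and 1922 counts, and the labels do not say which part of it was altered. All 8 erythroid progenitor markers reached 1 TPM (transcripts per 1000000, a level per length) in both libraries, from Klf1 at 9.53 and 9.73 TPM to Kit, the stem cell factor receptor, at 96.93 and 80.04. None of the 10 lymphoid, granulocyte and macrophage, fibroblast, muscle and heart markers did, and the highest was Col1a1 at 0.34 and 0 TPM. How the replicate cultures were kept apart is not stated, so differences between them measure only the spread of these libraries, which may be technical.

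Of the 13 protein genes, 7 have an annotated nuclear copy that is nearly the same sequence. All 7 copies are unprocessed pseudogenes on the minus strand of chr1:24611535-24616197 (mm10), a stretch of 4.66 kb. Only annotated transcripts were searched, so copies without an annotation were not examined. This matters for mt-Atp8, which lies between mt-Co2 and mt-Atp6, since both of these have a copy in this stretch. They align at 99.7% identity or more, and 5 of them cover all but the last 1 to 3 bases of the mitochondrial gene. The 3′ ends of those 5 genes and their copies are shown, in GENCODE M21 sequence. Bases in capitals lie past the end of the annotated copy. They are nearly all that tells the annotated sequences of these pairs apart.
mt-Co2, chrM:7667-7696, plus strand: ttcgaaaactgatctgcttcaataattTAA
Gm28661, chr1:24614885-24614911, minus strand: ttcgaaaactgatctgcttcaataatt
mt-Atp6, chrM:8578-8607, plus strand: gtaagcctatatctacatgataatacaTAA
Gm10925, chr1:24613974-24614000, minus strand: gtaagcctatatctacatgataataca
mt-Co3, chrM:9361-9390, plus strand: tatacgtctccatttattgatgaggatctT
Gm28437, chr1:24613189-24613217, minus strand: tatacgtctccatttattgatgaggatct
mt-Nd3, chrM:9777-9806, plus strand: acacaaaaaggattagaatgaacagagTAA
Gm28438, chr1:24612775-24612801, minus strand: acacaaaaaggattagaatgaacagag
mt-Nd4l, chrM:10144-10173, plus strand: gtccaaaatctcaacctactacaatgcTAA
Gm10222, chr1:24612407-24612433, minus strand: gtccaaaatctcaacctactacaatgc
In 4 of the pairs the annotated copy ends before the stop codon TAA. In mt-Co3 it ends before a single T, the start of a stop codon that mitochondria complete by adding a poly(A) tail. For mt-Nd4l the TAA is on chromosome 1, as Gm28439 matches the start of mt-Nd4, which overlaps the end of mt-Nd4l. For the other pairs no genome sequence was used to look past the annotated end. Within the aligned stretch the only difference in these 5 pairs is T3C in mt-Nd3, counted from 1 at the 5′ end of the gene, shown in capitals in the first 40 bases of each.
mt-Nd3, chrM:9459-9498, plus strand: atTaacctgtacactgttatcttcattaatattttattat
Gm28438, chr1:24613080-24613119, minus strand: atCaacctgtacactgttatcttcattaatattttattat
The other 2 copies cover part of a gene. Gm28439 matches the first 876 of the 1378 nt of mt-Nd4 without a difference, and Gm29216 matches the last 483 nt of mt-Co1 with A1066T.

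Most counts of the 5 pairs that match over the whole gene were assigned to chromosome 1 in the deposited tables. The 7 copies held 335578 counts in replicate 1 and 304989 in replicate 2, beside 947833 and 676012 on the 37 mitochondrial genes. The copies therefore took 26.1% and 31.1% of the sum. For mt-Nd3, a complex I subunit, the copy held 46067 counts and the gene 3301 in replicate 1, and 55024 against 1621 in replicate 2. For mt-Co3, a core subunit of cytochrome oxidase, the copy held 150887 counts against 19996 in replicate 1, and 148927 against 37639 in replicate 2. For mt-Co2, which carries the copper centre that accepts electrons from cytochrome c, the copy held 70298 counts against 4241 in replicate 1, and 56003 against 2227 in replicate 2. In each of these 3 pairs the copy exceeded the gene in both libraries.

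ATP synthase and the small complex I gene showed the same division. For mt-Atp6, a membrane subunit of the proton channel of ATP synthase, the copy held 66853 and 42569 counts and the gene 4696 and 4707 in replicates 1 and 2. For mt-Nd4l the copy held 1439 and 1429 counts and the gene 110 and 0. The partial copies took almost nothing, as Gm28439 held 2.13 and 2.44 counts beside 26800 and 17038 on mt-Nd4. Gm29216 held 32 and 1034 counts beside 710254 and 488136 on mt-Co1. The 5 pairs that match over the whole gene thus had between 79.8% and 100% of their counts on the copy, and the 2 partial pairs had at most 0.211%.

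The authors' own error estimates marked the same 5 genes. Beside each expected count the tables give a posterior mean and a posterior SD, which measure how firmly reads that fit several genes could be placed. For mt-Co2 the posterior mean was 21912 with an SD of 13780 in replicate 1, against an expected count of 4241, and 20482 with an SD of 13573 against 2227 in replicate 2. For mt-Co3 it was 58960 with an SD of 41120 in replicate 1 and 71690 with an SD of 48916 in replicate 2. For mt-Atp6 it was 18376 with an SD of 13758 and 12700 with an SD of 7837. The posterior SD was above a share of 0.05 of the mean in these 3 genes, mt-Nd3 and mt-Nd4l, 5 of 15 mitochondrial genes with counts, whereas 7.46% of all tested genes passed that limit. For mt-Co2 the deposited TPM of 53.25 in replicate 1 lay under the authors' own interval, from 84.7 to 599.6, and that of 26.56 in replicate 2 lay under one from 69.8 to 534.5. Such intervals were also missed by genes without that mark, as the 3157 TPM of mt-Co1 lay above 3142 in replicate 1, and in replicate 2 its 2118 above 2103 and the 189.2 of mt-Rnr2 above 189.02. For mt-Nd3 the posterior placed reads more firmly, 3479 with an SD of 325 in replicate 1 and 1778 with an SD of 295 in replicate 2, and left 93.0% and 96.9% of the pair on the copy. This pair differs at T3C, and which base the mitochondrial DNA of this line carries there was not tested, so the division may not show where the reads came from. Whether these reads came from mitochondria or from chromosome 1 cannot be told apart where the sequences are the same. The sum of gene and copy does not depend on the division, and it was 74539 counts for mt-Co2 in replicate 1 by either estimate. Levels below are therefore given both as deposited and with the copy added.

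**Figure D1:**
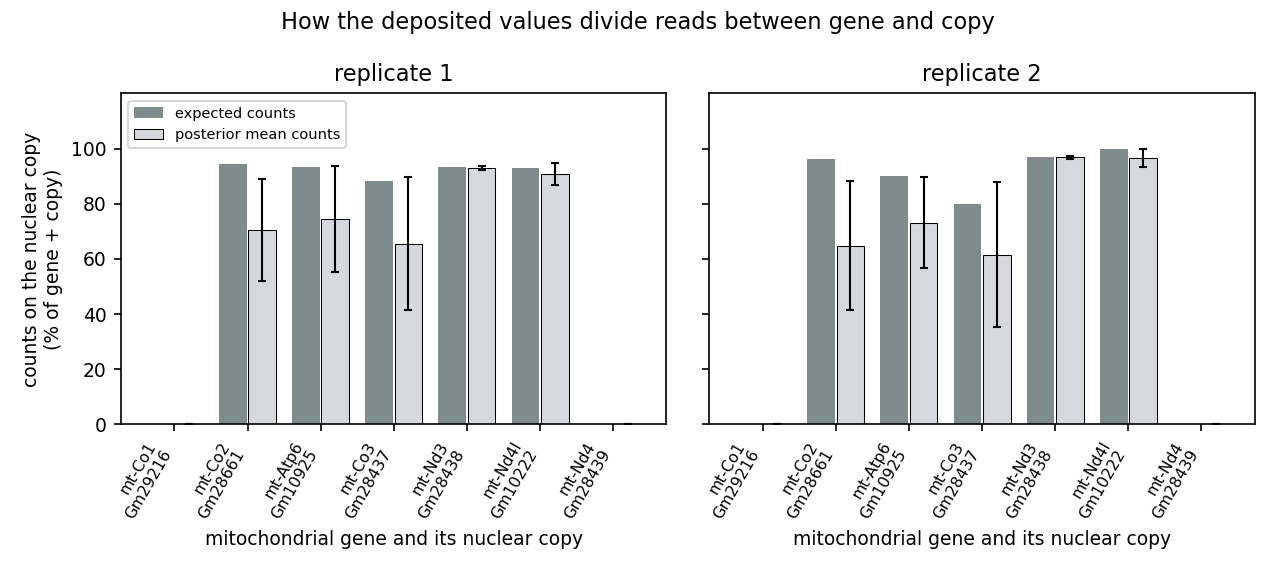
Share of counts on the nuclear copy, in percent of gene plus copy, for the 7 mitochondrial genes with a near-identical copy, in each library. Dark bars are expected counts, light bars posterior mean counts with the posterior SD as error bar. In replicate 1 the expected share on the copy lies between 88.3% and 94.3% for 5 genes and at 0.0045% and 0.0079% for mt-Co1 and mt-Nd4.

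Mitochondrial genes held 1.63% of gene counts in replicate 1 and 1.22% in replicate 2, a mean of 1.43% ± 0.289 (SD, n = 2). With the copies added the shares were 2.21% and 1.77%, or 1.99% ± 0.307. In TPM the 37 genes took 0.522% ± 0.114, and 1.03% ± 0.154 with the copies. The median TPM of the 13 protein genes was 101.3 ± 45.9 as deposited and 260 ± 52.7 with the copies, beside 0.015 ± 0.00707 for all named genes. The 8303 nuclear protein-coding genes that reached 1 TPM in both libraries had a median of 7.34 TPM in replicate 1 and 6.60 in replicate 2. Each median is over the genes' mean TPM, with the SD of the medians in the libraries.

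Complex IV, cytochrome oxidase, passes electrons to oxygen, and its catalytic subunit gene dominated the mitochondrial reads. mt-Co1 (chrM:5328-6872) held 74.9% of mitochondrial counts in replicate 1 and 72.2% in replicate 2, or 55.3% and 49.8% with the copies in the total. It ranked 4 of all named genes by counts in both libraries. Its level was 3157 TPM in replicate 1 and 2118 in replicate 2, 10.6 and 9.52 times that of mt-Nd1. mt-Co3 stood at 207.2 and 373.0 TPM as deposited, and at 1773 and 1851 with its copy, which is 8.56 and 4.96 times more. mt-Co2 stood at 53.2 and 26.6 TPM, and at 942 and 698 with its copy, 17.7 and 26.3 times more. As deposited the 3 subunit genes of complex IV spanned the range from mt-Co1, first among the 15 genes, to mt-Co2, in place 12. With the copies all 3 were among the first 5 of the 13 protein genes.

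Complex I takes electrons from NADH, and its 7 mitochondrial genes spread widely. mt-Nd1 stood at 296.9 TPM in replicate 1 and 222.4 in replicate 2, mt-Nd4 at 136.2 and 84.3, and mt-Nd2 at 131.3 and 71.2. mt-Nd5, the last plus-strand gene of the complex, stood at 47.9 and 36.6 TPM. None of these 4 depends on a full-length copy, and each was lower in replicate 2 in TPM. mt-Nd3 stood at 140.1 and 59.7 TPM as deposited, and at 2135 and 2124 with its copy. Its pooled value differed by a SD of 7.47 TPM between the libraries. With copies it was second to mt-Co1, at 3158 and 2138 TPM, but the deposited 2118 of mt-Co1 in replicate 2 was lower. In counts per kb of annotated length, with copies, mt-Nd3 stood at 141862 and 162773, below mt-Co3 at 217963 and 237967. mt-Nd4l went from 6.97 TPM to a listed 0 as deposited, but stood at 100.8 and 76.9 with its copy.

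Complex III and ATP synthase add cytochrome b and a pair of membrane subunits. mt-Cytb, the subunit of complex III that binds quinone, has no near-identical copy in the annotation and stood at 171.9 TPM in replicate 1 and 127.6 in replicate 2. mt-Atp6 stood at 59.3 and 56.5 TPM as deposited, and at 909.6 and 570.2 with its copy. mt-Atp8, a short accessory subunit, stood at 1245 and 1008 TPM, and the next paragraphs return to its length. In the order of levels as deposited, 7 of 14 neighbouring pairs among the 15 genes did not overlap between their libraries. The neighbours mt-Co3, mt-Nd1 and mt-Rnr2 overlapped, as did mt-Cytb, mt-Nd4, mt-Nd2 and mt-Nd3, and mt-Nd5, mt-Co2 and mt-Nd6. With the copies 8 of 12 neighbouring pairs of the 13 protein genes did not overlap, and the overlapping neighbours were mt-Co2 with mt-Atp6 and the run of mt-Cytb, mt-Nd4, mt-Nd2 and mt-Nd4l.

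**Figure D2:**
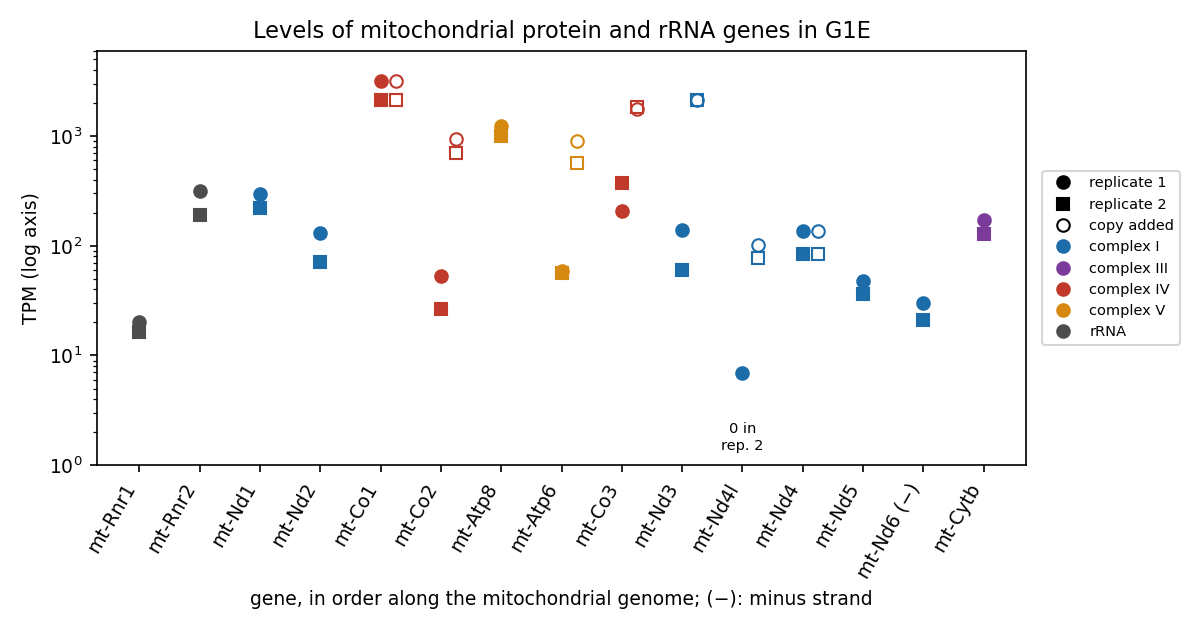
TPM (log axis) of the 13 protein genes and 2 rRNA genes in gene order, circles for replicate 1 and squares for replicate 2, coloured by complex. Filled marks are the deposited TPM and open marks the TPM with the near-identical copy added. mt-Nd3 rises from 140.1 and 59.7 to 2135 and 2124 TPM, while mt-Co1 stays near 3157 and 2118.

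Mitochondrial genes are packed closely, and some mRNAs carry overlapping reading frames. mt-Atp8 and mt-Atp6 share 43 nt, and mt-Nd4l and mt-Nd4 share 7 nt. The ends of the upstream genes are shown with the shared bases in capitals. The posterior SD of mt-Atp8 was 0 in both libraries, so none of its counts were marked as shared with mt-Atp6.
mt-Atp8, chrM:7910-7969, plus strand: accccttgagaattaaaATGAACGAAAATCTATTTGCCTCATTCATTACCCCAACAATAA
mt-Nd4l, chrM:10150-10173, plus strand: aatctcaacctactacaATGCTAA
The genes of each pair are known to lie on a single shared mRNA. Counts per kb of annotated length were 26475 and 31353 for mt-Atp8 in replicates 1 and 2, and 105065 and 69421 for mt-Atp6 with its copy. No annotated copy of mt-Atp8 was found, so none was added to it. By this measure mt-Atp6 exceeded mt-Atp8 by 3.97-fold and 2.21-fold. In TPM the order turned, with mt-Atp6 and its copy at 0.731 and 0.566 of mt-Atp8. TPM divides by an effective length, the number of places where a whole fragment fits. For the 204 nt of mt-Atp8 it was 25.7 in replicate 1 and 37.2 in replicate 2, where the effective lengths of long genes correspond to mean fragments of 213.2 and 192.5 nt. The second place of mt-Atp8 in TPM thus holds only with the effective length and without the copies, with which it is in place 4. Against mt-Nd1 it stood at 4.19 and 4.53 in TPM, but at 0.679 and 1.04 in counts per kb. For mt-Nd4 over mt-Nd4l, with copies, the ratio was 3.73 and 2.57 in counts per kb and 1.35 and 1.10 in TPM.

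The ribosomal RNAs were unequal after rRNA depletion. The genes of both rRNAs lie side by side near the start of the plus-strand transcript and are transcribed together. mt-Rnr1, the RNA of the small subunit (chrM:70-1024), held 2510 and 2134 counts, or 20.02 and 16.4 TPM. mt-Rnr2, the RNA of the large subunit (chrM:1094-2675), held 73262 and 44802 counts, or 316.9 and 189.2 TPM. mt-Rnr2 therefore exceeded mt-Rnr1 by 15.8-fold in replicate 1 and 11.5-fold in replicate 2 in TPM. Both are what the depletion left, and no source used here says how well it removes each mitochondrial rRNA. mt-Rnr2 overlapped mt-Nd1 in TPM, an mRNA just downstream, with mt-Nd1 at 0.937 and 1.18 of mt-Rnr2.

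By annotation, mt-Nd6 was the only minus-strand gene with counts. On the reference sequence 28 genes lie on the plus strand and 9 on the minus strand, of which 8 are tRNA genes. mt-Nd6, a complex I subunit (chrM:13552-14070, minus strand), held 1565 counts in replicate 1 and 1177 in replicate 2. That was 0.179% and 0.187% of the counts on mitochondrial protein genes, or 0.183% ± 0.0054 (SD, n = 2). Its level was 30.2 and 21.1 TPM, the lowest of the 13 protein genes once copies were added. mt-Co1 exceeded it by 104.5-fold and 100.4-fold in TPM. Its neighbours on the other strand, mt-Nd5 and mt-Cytb, stood at 1.59 and 1.74 times, and 5.69 and 6.05 times, the TPM of mt-Nd6. mt-Nd5 and mt-Nd6 overlap by 14 nt on opposite strands, and the posterior SD of both was 0 in both libraries. No source used here says whether counting used the strand. Whether reads of plus-strand RNA entered the counts of mt-Nd6, at any point of its length, is therefore not known.

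None of the 22 tRNA genes could be measured. Mitochondrial tRNAs read the mitochondrial code and also mark where the precursor is cut. The genes are 59 to 75 nt long, and all 22 had an effective length of 0 and 0 counts in both libraries. The labels give a size range of 200 to 1000, without a unit. The shortest and the longest of them are shown to make plain how little there is for a fragment to cover.
mt-Ts2, chrM:11613-11671, plus strand: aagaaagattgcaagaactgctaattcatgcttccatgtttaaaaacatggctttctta
mt-Tl1, chrM:2676-2750, plus strand: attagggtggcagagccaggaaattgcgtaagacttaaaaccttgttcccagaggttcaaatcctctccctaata
mt-Ts2 is a serine tRNA and mt-Tl1 a leucine tRNA. Across all named genes 3808 and 2497 had an effective length of 0, and 57 and 32 of them held any count. A listed 0 therefore says nothing of tRNA abundance here.

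Between the libraries mitochondrial RNA was lower in replicate 2 for most genes. Of the 37 genes, 15 had at least 10 counts over both libraries and entered an exact binomial test (two-sided, on rounded counts), which compares 2 libraries and knows counting error only. With library sizes scaled by TMM (which assumes that most genes do not differ), 12 of the 15 were lower in replicate 2, with a median log2 difference of -0.25, whereas scaling to the mitochondrial total gave 7 lower and 8 higher and put the median of all 18409 genes tested at 0.32. With TMM 9217 of those genes were lower, with a median of -0.00051. At an adjusted p below 0.05 and at least 2-fold, 2 of the 15 were called, 13.3%, against 14.8% of all genes tested (10.5% lower and 4.29% higher in replicate 2). The calls were mt-Co3, higher in replicate 2 by 1.08 (log2), and mt-Nd4l, lower, from 110 counts to 0. Both have a full-length copy. Of 6673 nuclear protein-coding genes with a mean of at least 1000 counts, a level that mt-Co3 reached and mt-Nd4l did not, 0.195% were called, 12 higher and 1 lower in replicate 2.

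Adding the copies removed both calls and turned 3 directions, those of mt-Nd4l, mt-Nd3 and mt-Atp6. mt-Co3 with its copy went from 170883 to 186566 counts, a log2 difference of 0.29 in place of 1.08. mt-Nd4l with its copy held 1549 and 1429 counts, at 0.047 (adjusted p = 0.488, exact binomial test with Benjamini-Hochberg adjustment). mt-Nd3 alone was lower in replicate 2, at -0.86, but with its copy it was higher, at 0.36, from 49368 to 56645 counts. mt-Atp6 alone was at 0.17, and with its copy at -0.43, from 71549 to 47276 counts. The 2 libraries thus divided the same pairs differently, as the copy's share of mt-Co3 reads was 88.3% and 79.8%, and that of mt-Atp6 93.4% and 90.04%.

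With the copies added no gene was called, although 13 of 15 had an adjusted p, and also an unadjusted p, below 0.05 in the exact binomial test. Lower in replicate 2 were mt-Nd2 at -0.67, from 18302 to 10269 counts, mt-Rnr2 at -0.55, mt-Nd4 at -0.49, mt-Atp6 at -0.43 and mt-Co1 at -0.37. Of the same 6673 nuclear genes, the central 95% lay between -0.30 and 0.50, with a median of 0.039. These 5 lay under that range, and none of the 15 above it. mt-Nd1, mt-Cytb, mt-Nd5, mt-Nd6 and mt-Co2 with its copy lay within it, from -0.25 to -0.19. mt-Rnr1 was at -0.071 (adjusted p = 0.159, exact binomial test). mt-Nd3 with its copy, mt-Atp8 at 0.41 and mt-Co3 with its copy were higher in replicate 2 in counts. In TPM mt-Atp8 was lower there, at -0.30, and with their copies mt-Nd3 went from 2135 to 2124 and mt-Nd4l from 100.8 to 76.9. Plus-strand genes thus ranged from -0.67 to 0.41 in counts. The upper end is mt-Atp8, whose effective length was 25.71 in replicate 1 and 37.25 in replicate 2.

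**Figure D3:**
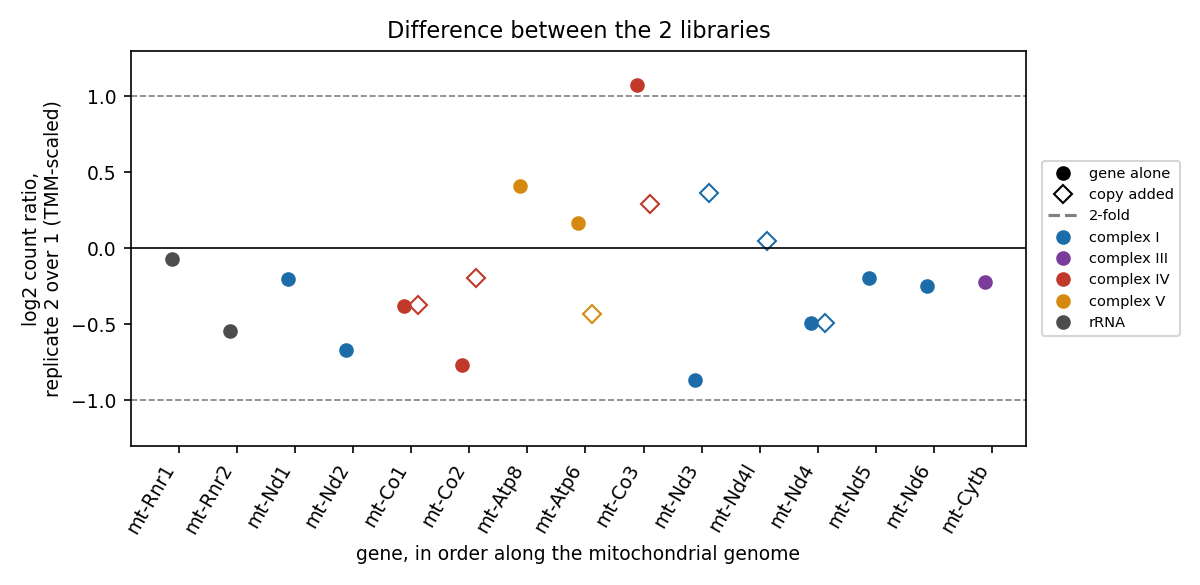
Log2 ratio of counts, replicate 2 over replicate 1 with TMM-scaled library sizes, for the 15 genes with counts in gene order. Circles are genes alone, diamonds genes with their near-identical copy, and dashed lines mark 2-fold; mt-Nd4l alone has 0 counts in replicate 2 and no circle. mt-Co3 moves from 1.08 to 0.29 and mt-Nd3 from -0.86 to 0.36.

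The nuclear genes that make and process mitochondrial RNA were all detected. A list of 32 factors of mitochondrial transcription, replication and RNA processing had a median level of 7.42 ± 0.672 TPM, and all 32 reached 1 TPM in each library. The highest were the oligonucleotide exonuclease Rexo2 at 49.5 and 46.0 TPM, the mRNA-stabilizing partner Slirp at 27.4 and 26.5, and the CCA-adding enzyme Trnt1 at 27.7 and 24.5. Polg2, the accessory subunit of the mitochondrial DNA polymerase, was lowest at 1.58 and 1.19 TPM. None of the 32 was called between the libraries, in either direction, beside 14.8% of all genes tested and 0.195% of the abundant nuclear genes. In counts 17 were higher and 15 lower in replicate 2, with a median log2 difference of 0.015.

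A chosen list of 21 nuclear-encoded subunits of the same complexes served as a comparison, and other nuclear subunits were not examined. For complex IV the median of 3 mitochondrial genes was 207.2 and 373.0 TPM in replicates 1 and 2, against 100.5 and 127.1 for 5 nuclear subunits, a ratio of 2.06 and 2.93. With the copies the ratio was 17.6 and 14.6. For ATP synthase the ratio to 5 nuclear subunits was 7.22 and 5.68 as deposited and 11.9 and 8.42 with the copy. This median is the midpoint of mt-Atp8 and mt-Atp6. As deposited mt-Atp6, at 59.3 and 56.5 TPM, was below the nuclear median of 90.32 and 93.69. The deposited ratio therefore rests on mt-Atp8, whose TPM depends on its short effective length. For complex I it was 3.83 and 1.98 against 7 nuclear subunits, and 3.83 and 2.55 with copies, and mt-Cytb stood at 5.37 and 4.16 times the median of 4 nuclear subunits of complex III. In each complex and both libraries the mitochondrial median was higher than that of the listed nuclear subunits. With 2 libraries the smallest two-sided exact sign test p is 0.5, so these ratios were not tested. By mean of both libraries the highest listed subunits were Atp5b, Cox6c and Cox7c. Atp5b, the catalytic beta subunit of ATP synthase, stood at 551.5 and 494.4 TPM. Cox6c of complex IV stood at 197.7 and 202.1, and Cox7c, also of complex IV, at 143.9 and 127.1. The lowest was Ndufs8, an iron-sulfur subunit of complex I, at 8.66 ± 0.481 TPM (SD, n = 2). In counts 20 of the 21 nuclear subunits were higher in replicate 2 and none was called. Of the 6673 abundant nuclear genes 3917 were also higher in counts. With the same scaling 12 of 15 mitochondrial genes were lower, or 11 of 15 with copies. In TPM, which is not scaled by TMM, the nuclear subunits went both ways. The median of all detected nuclear protein-coding genes was 7.34 in replicate 1 and 6.6 in replicate 2. The median of the listed subunits was lower in replicate 2 for complex I, from 34.26 to 30.15, and complex III, from 32.03 to 30.64. It was higher for complex IV, and for ATP synthase, from 90.32 to 93.69.

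**Figure D4:**
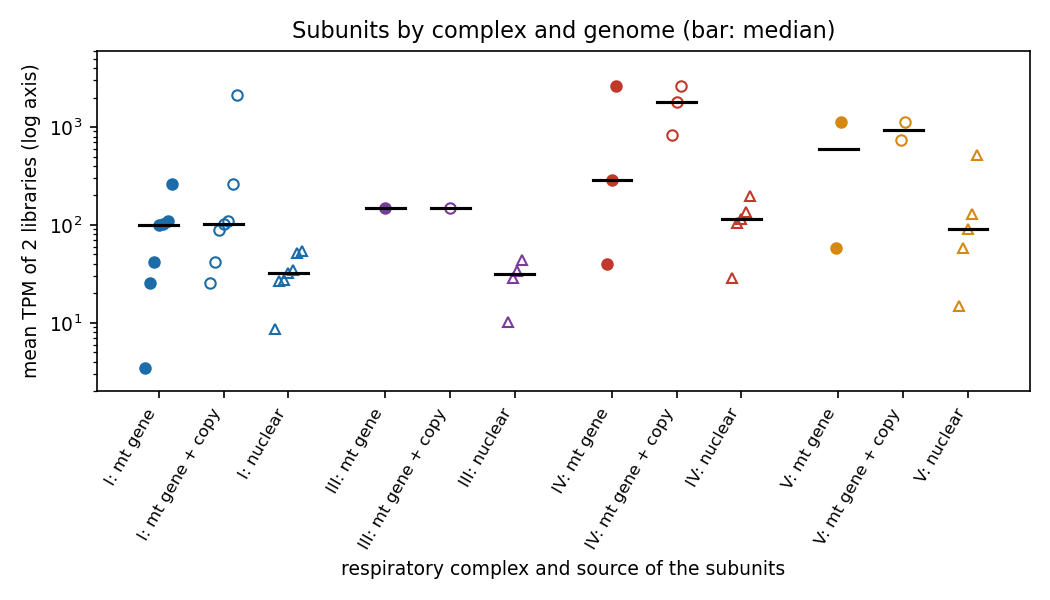
Mean TPM of 2 libraries (log axis) for subunits of complexes I, III, IV and V: filled circles are mitochondrial genes as deposited, open circles the same with copies, triangles nuclear-encoded subunits, and bars medians. For complex IV the median mitochondrial gene moves from 290.1 to 1812 TPM with the copies, beside 116.4 for the listed nuclear subunits.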

How the data were processed

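The members follow from the chromosome alone, but they and the lists were chosen for description with earlier results of these data known. The authors deposited 1 gene table per library on mm10 with GENCODE M4, per the file headers and deposited read-me texts, holding expected counts, posterior counts with SD, effective lengths, TPM and a TPM interval of unstated level. The deposited TPM values summed to 1000000 per library. No source used here names the quantifier or aligner. Symbols, coordinates and sequences came from GENCODE M21 on the same assembly. Rows that name no gene held 20 and 37.61 counts and were left out.

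Copies were found with BLAST 2.17.0 between M21 transcripts (at least 90% identity over 100 nt, near-identical from 99%), since no genome sequence was used. The 7 near-identical copies are the 7 genes listed for the case without a genome. Expected counts were rounded for tests. TMM factors came from edgeR 4.0.16 and alternative size factors from DESeq2 1.42.0 (R 4.3.3). The exact binomial test used Benjamini-Hochberg adjustment over genes with at least 10 counts. It was tried on simulated counts that held counting error only, as the test assumes. That trial cannot show how the test behaves with further spread between libraries. All 13 protein and 2 rRNA genes are named, and of nuclear lists the highest 3, the lowest, called genes and copies with at least 10 counts; tRNA genes shown were chosen by length. Python 3.11.15 with scipy 1.17.1, numpy 2.4.6, pandas 2.3.3 and matplotlib 3.10.9 did the rest. No source used here names molecular identifiers, and the tests cover counting error only.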

Additional observations from a re-analysis of the deposited data

How the results depend on the processing

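The mitochondrial share of counts, 1.43%, moved to 1.99% with the 7 near-identical copies added and to 1.99% with all aligned copies, a setting chosen after seeing the data, as were all further values with copies. Against nuclear protein-coding plus mitochondrial genes it was 1.72%, only just within 1 SD, and this smaller total raises the share by construction. The share of TPM, 0.522%, moved to 1.16% with annotated in place of effective lengths and to 1.03% with the copies. The median TPM of protein genes, 101.3, moved to 148 with posterior mean TPM, 265 with annotated lengths and 259.7 with copies. The share of mt-Nd6, 0.183% of counts, became 0.466% per annotated length, 0.516% in TPM and 0.128% with copies. Leaving out replicate 1 or 2 gave 1.22% and 1.63% of counts, 0.441% and 0.602% of TPM, medians of 71.2 and 136.2 TPM, and 0.187% and 0.179% for mt-Nd6. The 2 calls between libraries became 1 with total counts on genes (mt-Nd4l alone), 5 at a 1.5-fold minimum and 0 with copies, and were mt-Co3 and mt-Nd4l again with DESeq2 size factors, with no filter on low counts, with the mitochondrial total and in the edgeR exact test, where 5 had an unadjusted p below 0.05. With copies the log2 count difference reversed for mt-Atp6, to -0.43, mt-Nd3, to 0.36, and mt-Nd4l (110 counts to 0 alone), to 0.047. The cause was not tested. No paired analysis was possible because there is 1 group.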

Other observations

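Nuclear copies that have diverged took few counts. Besides the 7 near-identical copies, 10 genes aligned to a mitochondrial gene at 90.7% to 97.6% identity, and 8 of them were in the tables. The highest was Gm13340 on chromosome 2, which matches all 1545 nt of mt-Co1 with 37 mismatches. It held 23.3 and 26.5 counts in replicates 1 and 2, beside 710254 and 488136 on mt-Co1. Gm13341, a copy of mt-Co2 at 95.9% identity, held 13.3 and 12.3 counts, and Gm11512, a partial copy of mt-Co1, held 11 and 10. Gm11408, a copy of mt-Nd6, and Gm11410, a copy of mt-Cytb, lie side by side on chromosome 4 and each held 9 counts in replicate 1 and 1 in replicate 2. With all aligned copies added, the mitochondrial share of counts was 1.99%, as with the 7 alone.

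The ends of the protein genes differ from those of nuclear genes. Of the 13, 4 do not start with ATG in the annotated sequence: mt-Nd1 starts with GTG, mt-Nd2 with ATA, mt-Nd3 with ATT and mt-Nd5 with ATC. Lengths of 3 genes, mt-Co3, mt-Cytb and mt-Nd4, leave 1 base after the last codon, a T in each. The single T of mt-Co3 lies past the end of its annotated nuclear copy.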
